A study of Mus musculus with 8 samples.

Results

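The genes described here are 10 markers of the small blood vessels of the brain, read in hippocampal RNA of mice in which the tyrosine kinase Pyk2 was deleted or altered. They were taken as a named list: 8 genes of endothelial cells (Cldn5, Flt1, Kdr, Pecam1, Tek, Abcb1a, Slc2a1 and Ly6c1) and 2 of pericytes (Pdgfrb and Rgs5), out of 17678 genes matched between the kinds of table deposited. Endothelial cells line the brain capillaries and form the blood-brain barrier, in which claudin tight junctions close the gaps between cells and dedicated transporters carry glucose in and drugs out. Pericytes wrap the capillaries and are held there by PDGF-B signalling, while the VEGF and angiopoietin pathways govern growth and stability of the endothelium. Pyk2 is a focal adhesion kinase relative that is known to act in endothelial cells as well as in neurons.

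All animals were C57BL/6 mice and the tissue was hippocampus. The 4 groups of 2 libraries were mice with a CRISPR knockout of Pyk2 (KO), mice with the CRISPR-made Y402F substitution, which removes the autophosphorylation tyrosine of Pyk2 (Y402F), wild-type mice paired with the knockout line (KO controls) and wild-type mice paired with the Y402F line (Y402F controls). RNA was taken with Trizol and libraries were made from total RNA. The labels give no age, sex, number of animals behind a library or number of founder lines. The p-values rest on the spread within groups of 2 libraries, which may therefore be technical in the control groups. In the main limma fits a gene has a single spread, pooled over all 4 groups and so over both kinds of table. Both limma and edgeR also draw on the spread of other genes. In each mutant group the 2 libraries differed in sex genes, as given below, so their spread is not only technical and includes any effect of sex. In bulk RNA, fewer cells of a type and less RNA per cell cannot be told apart.

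The mutant libraries held 5756180 and 5965755 (KO) and 5825061 and 6017219 (Y402F) expected counts, which are read counts estimated per gene. The control tables hold only FPKM, fragments scaled to transcript length and library size, and their depth is not given. Levels below are scaled FPKM, that is FPKM divided by 1 factor per library, and limma's log2 differences are on the scale of log2(scaled FPKM + 1), which understates changes of low genes. The mutants and the controls were deposited in tables of different kinds, so processing and genotype cannot be told apart wherever a mutant is set against its controls. That confounding is absent from KO against Y402F and from the wild-type groups, and a shift shared by both lines drops out when the KO effect is set against the Y402F effect. A gene is named as called where its p, adjusted by the Benjamini-Hochberg method over every gene tested, was under 0.05.

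The targeted gene Ptk2b had 56.0 and 68.7 scaled FPKM in KO, against 309 and 308 in KO controls, and 353 and 396 in Y402F, against 324 and 317 in Y402F controls. Hippocampal neuron genes were present in every library, such as Camk2a at 965 to 1390 scaled FPKM and the granule cell gene Prox1 at 8.67 to 19.8. Some libraries differed in other cells. The summed level of 8 choroid plexus markers was 39.97 and 54.0 in KO, 39.7 and 754 in Y402F, 49.2 and 48.4 in KO controls, and 1148 and 1174 in Y402F controls. The sex genes also differed within groups: Xist stood at 25.5 and 0.170 in KO and at 40.1 and 0.106 in Y402F, and the Y-linked Ddx3y at 0.0419 and 5.07 in KO and at 0.0423 and 4.74 in Y402F. In KO controls Xist was 3.95 and 3.24, and Ddx3y 0.0694 and 0.0695. In Y402F controls Xist was 0.0522 and 0.295, and Ddx3y 5.77 and 4.79. Line, sex genes and choroid plexus levels thus differed together between the wild-type groups and cannot be told apart there. The same holds for the difference of the mutant effects, which uses both wild-type groups. Each mutant pair held a library with low and a library with high Ddx3y, whereas both KO controls were low and both Y402F controls high. Choroid plexus levels were also higher in both Y402F controls than in either Y402F library. Table kind was thus not the only difference beside genotype where a mutant is set against its controls. The part of these differences in the results below was not tested except where a value is given.

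All 10 genes were detected in all 8 libraries and passed the filters on low values in every comparison. On the per-length scale the order was much the same in each group. Ly6c1, a GPI-anchored surface protein of the Ly6 family that marks mouse endothelium, was highest at 51.0 to 83.1 scaled FPKM. Slc2a1, the glucose transporter GLUT1 of the barrier, followed at 27.1 to 38.6. Cldn5 and Rgs5 came next, at 13.3 to 20.3 and 12.4 to 22.3, and their libraries overlapped in every group except Y402F controls, where Rgs5 was higher. Pecam1 and Flt1 lay between 7.13 and 11.05, and Abcb1a and Pdgfrb between 3.06 and 7.77, with Tek and then Kdr lowest in every group. Within groups the replicates of the 10 genes differed by a median log2 gap of 0.12 to 0.14, against 0.15 to 0.19 over all genes.

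**Figure D1:**
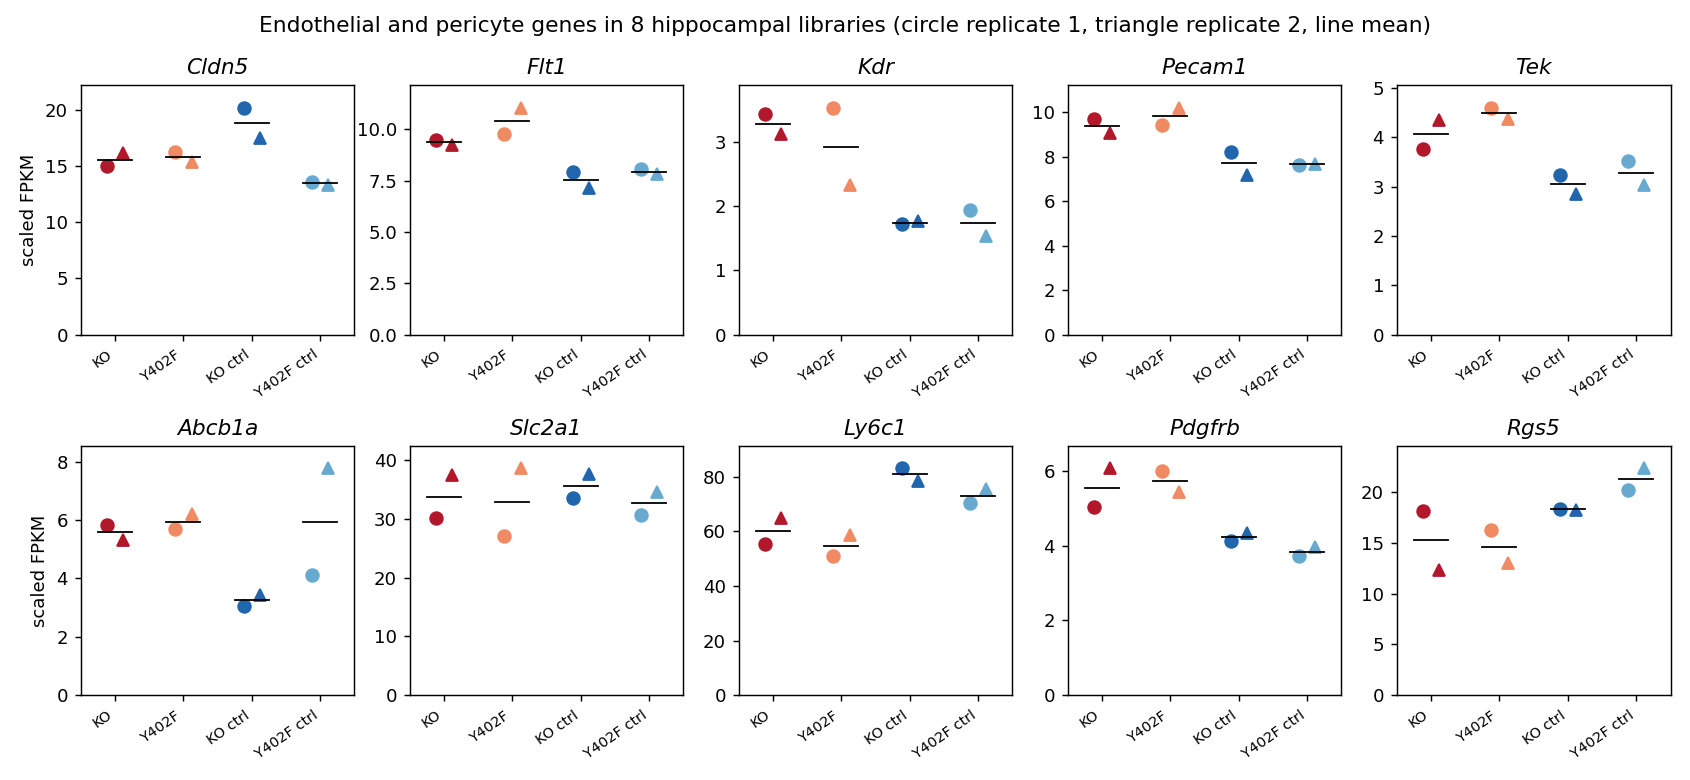
Scaled FPKM (vertical axes, from 0) of the 10 genes in each library of KO, Y402F, KO controls and Y402F controls; circles are replicate 1, triangles replicate 2 and lines the mean of the pair. Flt1, Kdr, Pecam1, Tek and Pdgfrb sit higher in all 4 mutant libraries than in all 4 control libraries, and Ly6c1 and Rgs5 lower.

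No difference between KO and Y402F was detected among the vascular markers. In edgeR's quasi-likelihood test on the counts none of the 10 genes was called, none had an unadjusted p under 0.05, and DESeq2 and limma also called none. Of all 13473 genes tested, edgeR called 2, or 0.0148%, and these were Ptk2b and the activity gene Npas4. An unadjusted edgeR p under 0.05 was found for 261 of the 13473. Only Flt1 and Tek, 2 of the 10, had no overlap between the mutants, both lower in KO, against 25.7% of all genes without overlap. The log2 differences of KO from Y402F ran from -0.15 for Flt1 to 0.17 for Kdr, with a median of -0.03 beside -0.00 for all genes. The 95% intervals differed by gene, from 0.718 to 1.12-fold for Flt1 and 0.736 to 1.24-fold for Pecam1 to 0.802 to 1.57-fold for Kdr, and the lowest bound was 0.685-fold for Tek. The genes had 73 to 566 expected counts per library. Each interval gives the changes compatible with the counts of that gene, under a spread that edgeR draws largely from other genes. It has no adjustment over all genes and is not a limit of detection.

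The receptors for vascular growth factors were higher in all 4 mutant libraries than in all 4 control libraries, a separation that 42.2% of all genes showed in one direction or the other, and only Kdr in KO was called. Kdr, the main signalling receptor of VEGF-A (chromosome 5, 75932827 to 75978458 on GRCm38, minus strand), had 3.44 and 3.13 scaled FPKM in KO, against 1.72 and 1.77 in KO controls. It had 3.54 and 2.32 in Y402F, against 1.94 and 1.54 in Y402F controls. All 4 mutant libraries were above all 4 control libraries. Kdr was called higher in KO (log2 difference 0.64, SE 0.21, limma adjusted p = 0.0446), one of 2 of the 10 genes called there, against 37.6% of all 12954 genes tested. In Y402F it was not called (0.51, SE 0.21, limma adjusted p = 0.105). The KO call was lost when any 1 of the 4 KO and KO control libraries was left out, with differences of 0.59 to 0.69 and limma adjusted p of 0.105 to 0.162.

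Flt1, the VEGF receptor that also binds the ligand as a decoy (chromosome 5, 147561604 to 147726011, minus strand), had 9.48 and 9.23 scaled FPKM in KO, against 7.94 and 7.13 in KO controls. In Y402F it had 9.76 and 11.05, against 8.05 and 7.80 in Y402F controls. Its groups did not overlap in either line, yet the differences of 0.28 in KO (SE 0.14, limma adjusted p = 0.151) and 0.35 in Y402F (SE 0.14, limma adjusted p = 0.0892) were not called. Tek, the angiopoietin receptor Tie2 (chromosome 4, 94739289 to 94874976, plus strand), had 3.77 and 4.36 in KO, against 3.24 and 2.85 in KO controls. It had 4.60 and 4.37 in Y402F, against 3.53 and 3.04 in Y402F controls. Here too no mutant library was as low as a control, and the differences were 0.32 in KO (SE 0.17, limma adjusted p = 0.175) and 0.36 in Y402F (SE 0.17, limma adjusted p = 0.148). For Flt1 and Tek, the deposited intervals of the control values reached 47.5 to 53.7% and 55.4 to 68.3% above the value, wider than the differences.

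Pdgfrb, the PDGF-B receptor by which pericytes are recruited (chromosome 18, 61045150 to 61085061, plus strand), had 5.04 and 6.07 scaled FPKM in KO, against 4.13 and 4.34 in KO controls. In Y402F it had 6.00 and 5.44, against 3.71 and 3.95 in Y402F controls. The groups did not overlap in either line, and neither difference was called (0.32 in KO, SE 0.16, limma adjusted p = 0.160; 0.47 in Y402F, SE 0.16, limma adjusted p = 0.0572).

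Rgs5, a regulator of G protein signalling that is abundant in pericytes (chromosome 1, 169655501 to 169695813, plus strand), lay on the other side. It had 18.1 and 12.4 scaled FPKM in KO, against 18.3 and 18.2 in KO controls, and 16.3 and 12.97 in Y402F, against 20.2 and 22.3 in Y402F controls. Every mutant library was lower than every control library, by a narrow margin for the first KO library. Neither difference was called (-0.27 in KO, SE 0.19, limma adjusted p = 0.286; -0.52 in Y402F, SE 0.19, limma adjusted p = 0.0659). The library values of the pericyte markers thus lay on opposite sides of their controls in both lines, without a call. Rgs5 also had the widest gap between the KO libraries of the 10 genes, 0.52 on the log2 scale. The lower library of each mutant pair was the one with low Xist and high Ddx3y, and the part of sex in this gap was not tested. Without the second KO library the KO difference was -0.01 (limma adjusted p = 0.967), and without the first it was -0.53 (limma adjusted p = 0.0751).

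The junction genes differed from each other. Pecam1, the adhesion molecule CD31 of endothelial contacts (chromosome 11, 106654217 to 106750628, minus strand), had 9.69 and 9.07 scaled FPKM in KO, against 8.19 and 7.19 in KO controls. It had 9.43 and 10.2 in Y402F, against 7.62 and 7.68 in Y402F controls. The mutant libraries were all above the controls, and the differences of 0.26 (SE 0.14, limma adjusted p = 0.181) and 0.32 (SE 0.14, limma adjusted p = 0.115) were not called.

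Cldn5, the tight junction protein that seals the barrier (chromosome 16, 18776847 to 18778262, plus strand), was the one member whose groups separated in opposite directions. It had 15.0 and 16.2 scaled FPKM in KO, against 20.3 and 17.5 in KO controls, and 16.3 and 15.4 in Y402F, against 13.6 and 13.3 in Y402F controls. KO lay below its controls and Y402F above its own, without overlap; 3.72% of all genes separated in opposite directions in the lines. The mutants overlapped with each other, and the controls were apart: KO controls were higher than Y402F controls by 0.45 (SE 0.13, limma adjusted p = 0.0629). The sex genes and choroid plexus levels given above also set the wild-type groups apart, so line, sex and tissue content cannot be told apart in that gap. The differences were -0.26 in KO (SE 0.13, limma adjusted p = 0.144) and 0.22 in Y402F (SE 0.13, limma adjusted p = 0.222). The difference of the effects was -0.47 (SE 0.18, unadjusted p = 0.0281 and adjusted p = 0.327 in limma) and was not called.

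Slc2a1 (chromosome 4, 119108711 to 119137983, plus strand) was close to its controls in both lines. It had 30.1 and 37.4 scaled FPKM in KO, against 33.5 and 37.6 in KO controls, and 27.1 and 38.6 in Y402F, against 30.6 and 34.6 in Y402F controls. The groups overlapped throughout, with differences of -0.08 in KO (SE 0.18, limma adjusted p = 0.756) and -0.01 in Y402F (SE 0.18, limma adjusted p = 0.972). In each mutant pair the library with high Ddx3y was the higher one. This was also so for Ly6c1, and for Kdr and Rgs5 that library was the lower one. For the other members the order differed between the mutant pairs. The part of sex in these gaps was not tested.

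**Figure D2:**
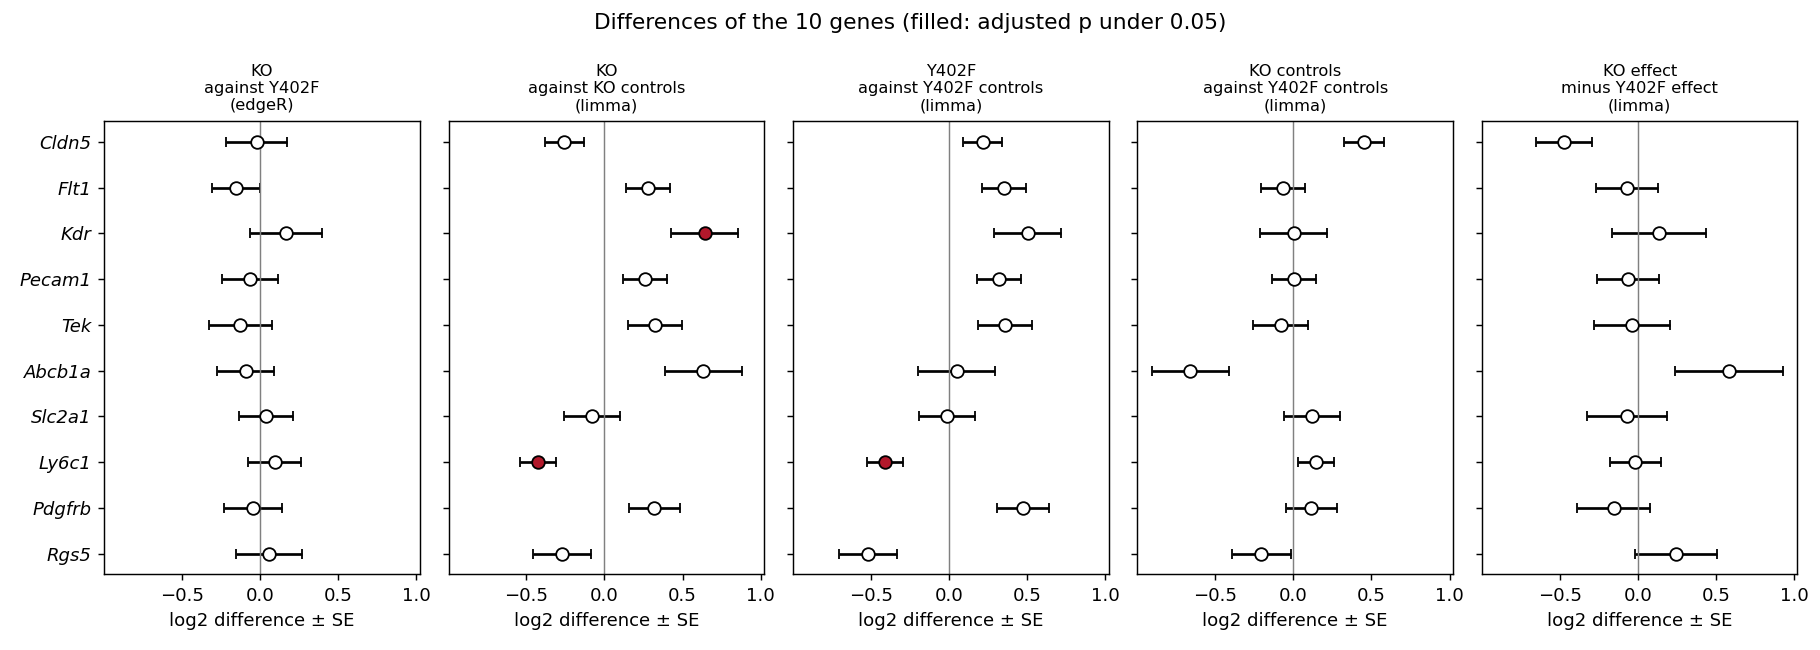
Log2 difference (horizontal axes) with its SE for each of the 10 genes in 5 comparisons, filled where the adjusted p was under 0.05. The only filled points are Kdr (0.64) and Ly6c1 (-0.43) in KO against KO controls and Ly6c1 (-0.41) in Y402F against Y402F controls, and all points of KO against Y402F lie within 0.17 of 0.

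Ly6c1 and Abcb1a each have a neighbouring copy with which they share stretches of sequence. Ly6c1 (chromosome 15, 75044018 to 75048830 on GRCm38, minus strand) lies near its copy Ly6c2 (75108158 to 75111970, minus strand), a surface protein of monocytes. Their coding sequences of 393 bases each differ at 9 bases (97.7% identity), with an identical run of 188 bases. Of the 50-base stretches in annotated Ly6c1 transcripts, 21.5% also occur in Ly6c2, and 32.8% in any other gene, Ly6c2 included. The first 150 coding bases, from GENCODE M21 on GRCm38, are shown because they hold 6 of the 9 differences, in capitals:
Ly6c1: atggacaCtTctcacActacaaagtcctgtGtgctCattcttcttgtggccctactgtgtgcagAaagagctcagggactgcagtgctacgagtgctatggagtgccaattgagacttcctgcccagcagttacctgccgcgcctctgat
Ly6c2: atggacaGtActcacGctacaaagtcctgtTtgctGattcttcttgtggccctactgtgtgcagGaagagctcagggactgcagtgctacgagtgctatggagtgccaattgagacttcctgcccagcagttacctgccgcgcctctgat

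Ly6c1 had 55.2 and 65.0 scaled FPKM in KO, against 83.1 and 78.6 in KO controls, and 51.0 and 58.6 in Y402F, against 70.6 and 75.5 in Y402F controls. All mutant libraries were lower than all controls. The gene was called in KO (-0.43, SE 0.11, limma adjusted p = 0.0199) and was the only one of the 10 called in Y402F (-0.41, SE 0.11, limma adjusted p = 0.0259), against 32.3% of all genes there. Each call held in only 1 of the 4 fits that leave out 1 of its libraries, with limma adjusted p of 0.0230 to 0.119 in KO and 0.0342 to 0.129 in Y402F.

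Ly6c2 was listed at 0 in both KO libraries and at 0 and 0.687 scaled FPKM in the Y402F libraries, where 0.687 stands for 3.33 expected counts. It had 20.6 and 21.4 in KO controls and 16.2 and 18.7 in Y402F controls. The copy thus held 0 to 1.16% of the summed level in the mutants and 18.7 to 21.4% in the controls. That split follows the kind of table and mutant against wild type alike, which cannot be told apart. The sum of both genes was 55.2 and 65.0 in KO, against 104 and 99.99 in KO controls, and 51.0 and 59.3 in Y402F, against 86.8 and 94.2 in Y402F controls. With the copies summed, a choice made after seeing the data, the lower level in the mutants was larger: limma gave -0.76 with an adjusted p of 0.00144 in KO and -0.71 with an adjusted p of 0.00229 in Y402F. How each program treated reads that fit both genes was not tested.

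Abcb1a, the P-glycoprotein that pumps drugs back into the blood (chromosome 5, 8660077 to 8748575, plus strand), has the copy Abcb1b beside it (8798147 to 8866315, plus strand). Their coding sequences of 3828 bases are 87.6% identical, with an identical run of 338 bases, and 16.3% of the 50-base stretches of Abcb1a occur in Abcb1b. A stretch of 120 bases from that run is shown because it has no difference between the genes, so a read inside it fits both (coding bases 1357 to 1476 of Abcb1a and 1366 to 1485 of Abcb1b):
Abcb1a: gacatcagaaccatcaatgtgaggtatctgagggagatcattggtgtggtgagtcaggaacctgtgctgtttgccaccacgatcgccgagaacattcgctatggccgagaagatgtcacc
Abcb1b: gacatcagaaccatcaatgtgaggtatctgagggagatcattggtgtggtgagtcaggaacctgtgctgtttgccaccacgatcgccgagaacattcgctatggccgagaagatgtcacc

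Abcb1a had 5.85 and 5.33 scaled FPKM in KO, against 3.06 and 3.44 in KO controls. It had 5.70 and 6.20 in Y402F, against 4.13 and 7.77 in Y402F controls. KO stood above its controls without overlap (0.63, SE 0.25, limma adjusted p = 0.0745), whereas Y402F lay between its controls (0.05, SE 0.25, limma adjusted p = 0.891; -0.08 without scaling and -0.30 with the copies summed). Neither was called. The value of 7.77 in the second Y402F control library had the widest deposited interval, 0 to 57.4 FPKM around 8.17 FPKM before scaling, and the first one's interval was 0 to 53.7 around 4.32.

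Abcb1b had 1.06 and 0.541 scaled FPKM in KO, against 1.32 and 1.38 in KO controls, and 0.699 and 0.539 in Y402F, against 2.91 and 2.06 in Y402F controls. Its share of the pair was 7.99 to 15.3% in the mutants and up to 41.3% in the controls, where the lowest was 20.97%. The sum of the pair was 6.90 and 5.87 in KO, against 4.38 and 4.81 in KO controls. In Y402F the sum was 6.39 and 6.74, against 7.03 and 9.83 in Y402F controls. The summed level in KO was above its controls and the summed level in Y402F below its own, with neither called (0.40, limma adjusted p = 0.125; -0.30, limma adjusted p = 0.243).

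**Figure D3:**
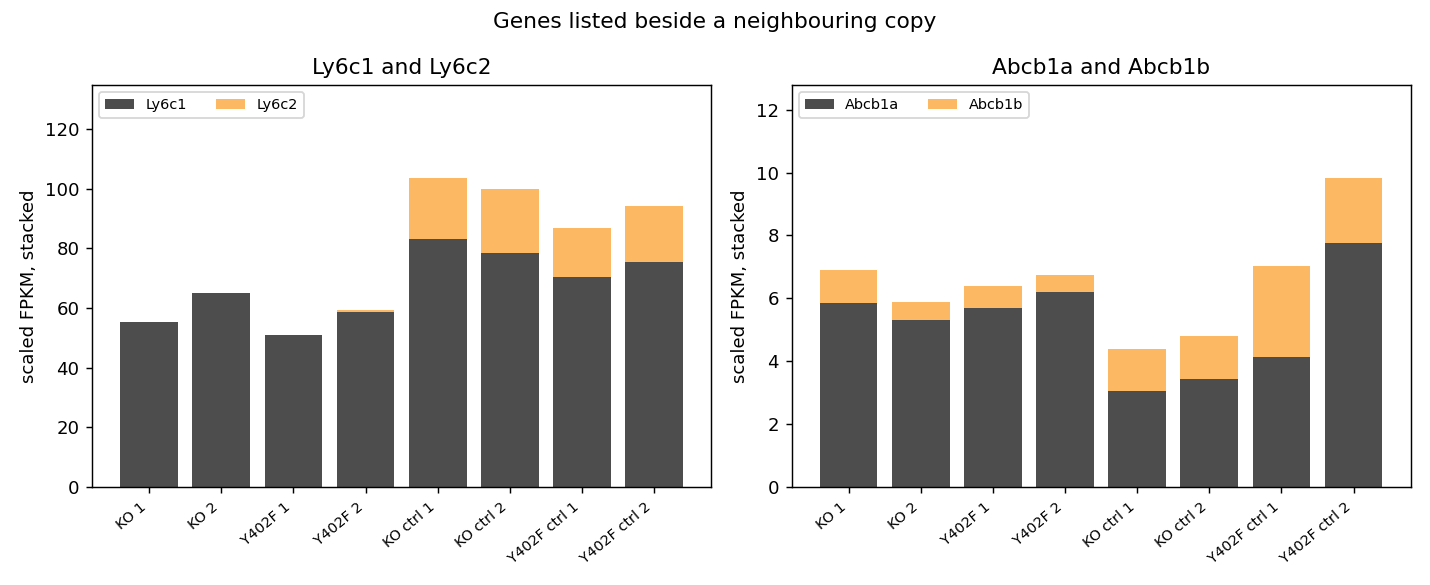
Stacked scaled FPKM (vertical axes, from 0) of Ly6c1 with Ly6c2 and of Abcb1a with Abcb1b in the 8 libraries. Ly6c2 is at or near 0 in the 4 mutant libraries and between 16.2 and 21.4 in the 4 control libraries, and the Abcb1b share is lower in the mutants than in the controls.

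Read over all 10 genes, 6 had a positive and 4 a negative difference in KO against KO controls, and 7 and 3 in Y402F against Y402F controls, with medians of 0.27 in both lines beside 0.00 for all genes. The 10 hippocampal neuron markers had 8 positive differences in each line, with medians of 0.29 in KO and 0.23 in Y402F. Of these markers 6 were called higher and 1 lower in KO, against 37.6% of all genes called in either direction. In Y402F 3 were called higher and 1 lower, near the share of 32.3% over all genes. KO and KO controls did not overlap for 9 of the 10 genes, against 71% of all genes, and Y402F and Y402F controls for 8, against 68.6%. For 7 genes this held in the same direction in both lines, against 48.8% of all genes. In these 7 all 4 mutant libraries also lay apart from all 4 control libraries, 5 higher and 2 lower, against 42.2% of all genes. The 2 comparisons rest on tables of different kinds in the same way, so genotype and processing cannot be told apart in either. Sex genes, and in Y402F choroid plexus levels, also differed between mutants and controls, as given above, and their part was not tested. Without scaling, the median gene of the series had a log2 difference of -0.12 in both lines, and the differences of the 10 genes fell by about that amount: Kdr in KO was then 0.54 (limma adjusted p = 0.0785), and Cldn5 in KO was called at -0.39 (limma adjusted p = 0.0399), as was Rgs5 in Y402F at -0.66 (limma adjusted p = 0.0290).

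Between the wild-type groups, KO controls against Y402F controls, limma called none of the 10 genes, against 7.97% of all genes, and for 5 of the 10 the groups did not overlap, against 59% of all genes. At an unadjusted limma p under 0.05 there were 2 of the 10, against 3512 of all 12954 genes. These were Cldn5, given above, and Abcb1a. Abcb1a stood at -0.66 in KO controls relative to Y402F controls (log2, SE 0.25, limma adjusted p = 0.129). With copies summed, that difference was called at -0.74 (limma adjusted p = 0.0479), and without the first Y402F control library at -1.05 (limma adjusted p = 0.0476). Without the second it was -0.27 (limma adjusted p = 0.497); each of these fits leaves 1 Y402F control library, which is assumed to vary like the other groups. The other 8 genes ran from -0.20 (Rgs5) to 0.14 (Ly6c1). Sex genes and choroid plexus levels also differed between the wild-type groups, so line, sex and tissue content cannot be told apart in this comparison. In the difference of the mutant effects, limma called none of the 10 genes, against 0.0309% of all genes. Cldn5 alone of the 10 had an unadjusted limma p under 0.05, against 1685 of all 12954 genes. The other 9 differences ran from -0.16 (Pdgfrb) to 0.58 (Abcb1a).

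Like the 10, other genes of the vessel wall did not share 1 direction. Of 24 further endothelial genes 23 could be tested against controls. In KO 2 were called higher and 3 lower, with a median of -0.02, and in Y402F 4 higher and 3 lower, with a median of -0.04; of all genes 37.6% were called in KO and 32.3% in Y402F. Over this and the next 4 lists, 16 of 56 genes were called in each line, a share below both, and the values that follow describe single genes. Egfl7, a secreted endothelial factor, had 16.9 and 18.4 scaled FPKM in the KO libraries, against 53.3 and 55.6 in KO controls (-1.57, limma adjusted p = 8.72e-05). It had 13.4 to 14.2 in Y402F, against 28.5 to 37.5 in Y402F controls (-1.19, limma adjusted p = 0.000431). Ramp2, which makes the receptor of adrenomedullin, was lower in KO (-1.20, limma adjusted p = 0.00189) and Y402F (-1.002, limma adjusted p = 0.00531). The arterial transcription factor Sox17 was lower in KO (-1.26, limma adjusted p = 0.00834) and Y402F (-0.92, limma adjusted p = 0.0353). Sox17 was low, at 0.806 to 1.595 scaled FPKM in the mutants from 16 to 32 expected counts. Its controls were far apart, at 2.88 and 4.62 in KO controls and 2.63 and 4.51 in Y402F controls. Itm2a was higher in Y402F (0.41, limma adjusted p = 0.0165). Slc16a1, the lactate transporter MCT1, and Ptprb, the endothelial phosphatase VE-PTP, named here after their values were seen, were higher in both lines. Slc16a1 was at 0.52 in KO (limma adjusted p = 0.0206) and at 0.52 in Y402F (limma adjusted p = 0.0228). Ptprb was at 0.50 in KO (limma adjusted p = 0.0414) and at 0.52 in Y402F (limma adjusted p = 0.0422). Egfl7 also differed between the wild-type groups, being higher in KO controls than in Y402F controls (0.72, limma adjusted p = 0.0265).

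Of 11 further mural genes, 1 was called higher and 1 lower in KO, against 37.6% of all genes called, and 1 higher and 2 lower in Y402F, against 32.3%. Higd1b, a pericyte marker, was lower in KO (-1.54, limma adjusted p = 0.00414) and Y402F (-1.24, limma adjusted p = 0.0130). Its mutant levels were near the floor, at 0.486 to 1.25 scaled FPKM from 2 to 5 expected counts per library. The control libraries had 2.69 to 4.70 scaled FPKM. Abcc9 and Kcnj8, the subunits of the pericyte KATP channel, were called higher, Abcc9 in KO (0.71, limma adjusted p = 0.0441) and Kcnj8 in Y402F (0.81, limma adjusted p = 0.0451). Both were low: Abcc9 had 1.84 and 1.69 scaled FPKM in KO, against 0.654 and 0.729 in KO controls. Kcnj8 had 1.66 and 2.165 in Y402F, from 20 and 27 expected counts, against 0.904 and 0.45 in Y402F controls. Anpep, an aminopeptidase of pericytes and meningeal cells, was lower in Y402F (-1.78, limma adjusted p = 0.0131). It had 1.05 and 0.813 scaled FPKM there, from 20 and 16 expected counts, and its Y402F controls were far apart at 3.65 and 8.43.

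Of the contractile genes of arterial smooth muscle, 3 of the 5 tested were called lower in KO, where 37.6% of all genes were called in either direction. Acta2, smooth muscle actin, had 7.10 and 9.50 scaled FPKM in the KO libraries, against 20.5 and 22.9 in KO controls (-1.30, limma adjusted p = 0.000894). Myl9 and Mylk, the light chain and its kinase, were at -0.85 (limma adjusted p = 0.0137) and -0.58 (limma adjusted p = 0.0438). In Y402F Mylk alone was called (-0.87, limma adjusted p = 0.00984). The difference between the mutant effects was called by limma for none of the 5. An unadjusted limma p under 0.05 was found there for 1 of the 5, against 1685 of all 12954 genes. Acta2 was also higher in KO controls than in Y402F controls (0.76, limma adjusted p = 0.0417). The leptomeninges, whose vessels carry smooth muscle, had markers with a summed level over 10 genes of 48.1 and 47.1 in KO, against 94.6 and 90.7 in KO controls, and 56.1 and 81.3 in Y402F, against 115 and 117 in Y402F controls. The highest levels in that sum were those of Dcn and Igf2, at 52.2 to 57.8 and 43.9 to 48.6 in Y402F controls. Of the 9 that could be tested 3 were called lower in KO (median -0.58), against 37.6% of all genes called. In Y402F 2 were called lower, against 32.3%, and 5 of the 9 differences were positive (median 0.07). Between the wild-type groups none was called, against 7.97% of all genes, and there the sum was lower in KO controls and Acta2 higher. The part of the leptomeninges in the smooth muscle result was not tested.

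Of the ligands that act on these vessels, Wnt7a, a neural Wnt that maintains the barrier, was lower in KO (-1.60, limma adjusted p = 0.000673) and Y402F (-0.92, limma adjusted p = 0.0115), and Vegfb was lower in KO (-0.35, limma adjusted p = 0.0376), out of 7 tested. Of 10 genes of barrier signalling, 3 were called higher and 1 lower in KO, and 2 higher and 2 lower in Y402F, near the shares of 37.6% and 32.3% over all genes. The lowest was Ctnnb1, β-catenin, which nearly all cells express and which is no measure of vessels: it had 119 to 120 scaled FPKM in KO, against 337 to 345 in KO controls, and 126 to 132 in Y402F, against 351 to 389 in Y402F controls. By limma it was at -1.50 in KO, with an adjusted p of 5.17e-06, and at -1.51 in Y402F, with an adjusted p of 5.07e-06. S1pr1, a sphingosine phosphate receptor that astrocytes also express, was higher in KO (0.58, limma adjusted p = 0.00496), and the TGF-β receptor Tgfbr2 was higher in KO (0.53, limma adjusted p = 0.0496) and Y402F (0.56, limma adjusted p = 0.0461). Between KO and Y402F, edgeR called none of the 57 further vascular genes it could test. Of the 57, 2 had an unadjusted edgeR p under 0.05, both of smooth muscle, against 261 of all 13473 genes.

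**Figure D4:**
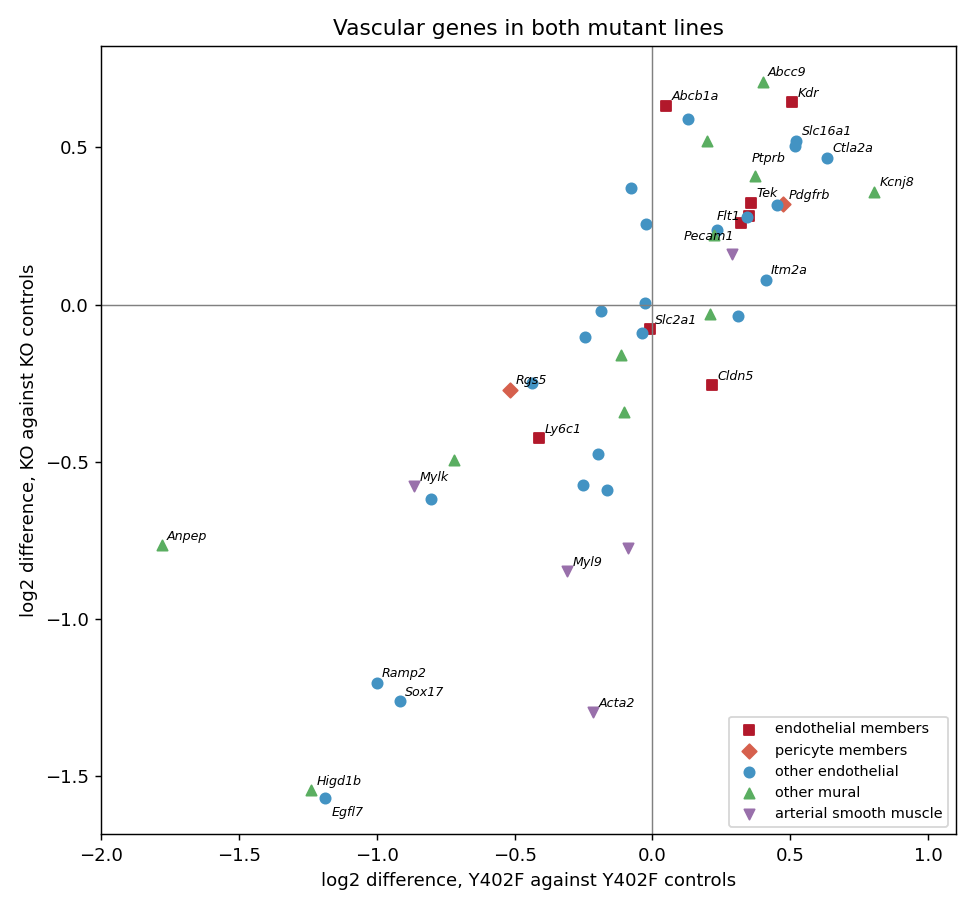
Log2 difference of KO from KO controls (vertical axis) against that of Y402F from Y402F controls (horizontal axis) for the 10 genes and the further endothelial, mural and smooth muscle genes, with names at the 10 genes and at genes called in either line. Egfl7 (-1.57 and -1.19) and Higd1b (-1.54 and -1.24) lie lower left, Cldn5 (-0.26 and 0.22) lies lower right, and Acta2 (-1.30 and -0.22) lies low near the middle.

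Markers of blood and immune cells, which share vessels with these genes, had their own pattern. The summed level of 5 red cell genes was 361 and 497 in KO, 281 and 409 in Y402F, 579 and 580 in KO controls, and 303 and 317 in Y402F controls. The summed level of 10 microglial genes was 302 and 316 in KO, 247 and 302 in Y402F, 345 and 358 in KO controls, and 272 and 244 in Y402F controls. Both sums were higher in KO controls than in Y402F controls, as Cldn5 was, while Kdr, Pecam1, Tek and Flt1 overlapped between the wild-type groups. Their part in the results for the 10 genes was not tested.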

How the data were processed

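Hippocampal RNA-seq tables of 8 libraries, 2 in each of 4 groups, were used. The mutant tables deposited by the authors hold an expected count and an FPKM per Entrez gene, and the control tables deposited by the authors hold FPKM per Ensembl gene with an interval. Tools named, per the submitters' processing notes, are HISAT and Bowtie 1 with build mm9 for each sample, plus Cufflinks for controls; what program made the expected counts is not stated. The control tables' gene positions are those of GRCm38: 99.8% of 17676 genes begin or end where GENCODE M21 has them.

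Of 18022 genes in the mutant tables, 17596 were matched by symbol (RefSeq gene table) and 88 by Entrez identifier (GENCODE M21). For a repeated identity 6 were dropped, and 17678 remained. FPKM was divided by median-of-ratios factors. KO against Y402F was tested with edgeR 4.0.16 (quasi-likelihood, TMM, rounded counts, 13473 genes, 2 residual degrees of freedom), and the rest with limma 3.58.1 (intensity trend, log2(scaled FPKM + 1), mean of at least 1 FPKM, 12954 genes, 4 residual degrees of freedom). Adjusted p-values are Benjamini-Hochberg over all genes tested. DESeq2 1.42.0, other filters, pseudocounts and scalings, a replicate block and leaving out each library were alternatives. The fits were tested on simulated data. Scripts ran in R 4.3.3 and Python 3.11.15 with Biopython 1.88, matplotlib 3.10.9, numpy 2.4.6 and pandas 2.3.3.

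All 10 members are named, with up to 3 genes of smallest p from each further list and comparison. The members and lists were chosen with earlier results of these data known. The depth of the control libraries is unknown, and the counts behind single members set the precision in the mutants.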

Additional observations from a re-analysis of the deposited data

Results flagged for a closer look

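Cldn5 was the member whose libraries lay on opposite sides of the controls in the mutant lines. It was lower in both KO libraries than in both KO controls and higher in both Y402F libraries than in both Y402F controls. The KO effect minus the Y402F effect was -0.473 on the log2 scale (SE 0.18, limma adjusted p = 0.327), so the test of the difference itself did not pass over all genes. The mutants had 15.0 to 16.3 scaled FPKM, and the gap lay between the wild-type groups, with 17.5 and 20.3 in KO controls and 13.3 and 13.6 in Y402F controls. Those groups also differed in sex genes and choroid plexus levels, and the part of these in the gap was not tested.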

How the results depend on the processing

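Of 280 values of the 10 genes under planned settings, 271 kept their direction and side of the threshold. The number of members called in KO against KO controls was 1 with no filter on low values, in Y402F against Y402F controls 2 without scaling, and in KO controls against Y402F controls 1 with the copies summed, an alternative chosen after seeing the data. Signs changed for Abcb1a in Y402F against Y402F controls (-0.0774 without scaling, -0.30 with copies summed) and for Pecam1 in KO controls against Y402F controls (-0.000470 without scaling). With no trend in limma, Ly6c1 in Y402F was lost (adjusted p = 0.0618) and Pdgfrb in Y402F was called (adjusted p = 0.0320). With only the compared libraries, Abcb1a in KO was called (adjusted p = 0.0374).

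With 1 library left out, the members called numbered 0 in KO against Y402F, 0 to 1 in KO against KO controls, 0 to 1 in Y402F against Y402F controls, 0 to 1 in KO controls against Y402F controls and 0 in the difference of effects. Of 240 such values, 38 changed sign, and the ranges of these log2 differences were as follows. In KO against Y402F, Cldn5 ran from -0.0634 to 0.0271, Kdr from -0.0960 to 0.496, Slc2a1 from -0.194 to 0.328, Ly6c1 from -0.0176 to 0.222, Pdgfrb from -0.170 to 0.0787 and Rgs5 from -0.248 to 0.321. Slc2a1 ran from -0.230 to 0.0721 in KO against KO controls and from -0.258 to 0.238 in Y402F against Y402F controls, where Abcb1a ran from -0.337 to 0.438. In KO controls against Y402F controls, Flt1 ran from -0.134 to 0.00262, Kdr from -0.103 to 0.110, Pecam1 from -0.0797 to 0.0879 and Tek from -0.165 to 0.00113. In the difference of effects, Flt1 ran from -0.153 to 0.0103, Kdr from -0.0872 to 0.361, Pecam1 from -0.147 to 0.0206, Tek from -0.1199 to 0.0481, Slc2a1 from -0.317 to 0.179, Ly6c1 from -0.131 to 0.0998 and Rgs5 from -0.0132 to 0.503.

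Same-numbered replicates deviated together in KO and Y402F (correlation 0.204) but in no other pair of groups (-0.03 to 0.05). The main fits did not take the numbers as pairs. In KO and in Y402F the first replicate had high Xist and the second high Ddx3y. A replicate block in KO against Y402F therefore also follows the sex genes. The part of sex in the correlation was not tested. The replicate block gave 0 members called in KO against Y402F, 2 in KO against KO controls, 1 in Y402F against Y402F controls and 0 in the other comparisons.

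Over all genes, KO against Y402F gave 1 call with no filter, 4 with the replicate block, 5 in limma and 18 to 44 with 1 library left out. KO controls against Y402F controls gave 513 with no filter, 165 with no trend, 325 with only the compared libraries and 169 to 270 with 1 library left out; the cause was not tested.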

Other observations

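By the root-mean-square distance over the 8 libraries, with each gene centred within its kind of table, the genes whose pattern was nearest to the mean of the 10 were Smarcc2 (0.0199), Actr3b (0.02), Usp11 (0.024), Tceal6 (0.0242) and Acaca (0.0249). That mean profile spans only -0.03 to 0.05 on the log2 scale, so nearness to it describes a flat profile.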
